A study of Sus scrofa with 9 samples.

Results

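The proteasome is described here through the 40 genes of its family that the porcine array named: every probe set annotated to 1 symbol starting PSMA, PSMB, PSMC, PSMD, PSME, PSMF or PSMG and a digit. They carried 46 of the 10069 endogenous probe sets with 1 symbol, and 40 of the 6765 genes so named. The tissue was mammary gland of 6 Large White sows, biopsied at 3 times counted from parturition: late pregnancy (day -17), the start of lactation (day 1) and its peak (day 17). All sows were fed a corn and soybean meal diet, and the labels name no treatment between the groups. The labels do not say whether a pool number marks the same sows on each day. Every array held a mixture of RNA from 2 sows in equal volumes, with 3 such pools per day and 9 arrays, so that no value belongs to a single animal. As a check of the labelled tissue, all 7 milk protein genes measured were brighter on day 17 than on day -17. EPCAM, an epithelial adhesion protein, was well above the filter level, but the 7 epithelial markers went both ways, with 3 higher and 2 lower on day 17 than on day -17. The adipocyte hormone gene ADIPOQ was near the floor on day 17 (mean signal 13.1). Of 7 adipocyte markers 1 was higher and 4 lower, and their summed signal on day 17 was still 15252 to 17101, mostly FABP4.

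The proteasome is the protease that degrades ubiquitin-tagged proteins in the cytosol and nucleus. Its barrel, the 20S core, is built of outer alpha rings (PSMA genes), which gate the entrance, and inner beta rings (PSMB genes), which hold the cutting sites. The 19S cap binds the barrel's end: its ATPases (PSMC genes) unfold the substrate, and its other subunits (PSMD genes) recognise and remove ubiquitin. Under interferon and in lymphoid cells, PSMB8, PSMB9 and PSMB10 replace the constitutive cutting subunits PSMB5, PSMB6 and PSMB7 to form the immunoproteasome, and PSME1 with PSME2 forms PA28, a cap without ATPases. Both are known for shaping the peptides shown on MHC class I molecules. In a secretory gland the proteasome also takes the proteins that the endoplasmic reticulum rejects. These roles are known mainly from human, mouse and yeast cells.

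A value is a MAS5 signal, a linear intensity per probe set, and a difference is the later day minus the earlier one in log2 ± standard error from limma, with n = 3 pools per day and p adjusted over 15519 probe sets. All 46 probe sets passed the filter on dim probe sets, so no member was left out. Each gene stands for its brightest probe set, whose signal lay between 169.7 and 10035 in every pool, where the 40th percentile of an array was 82.1 to 94.2. Directions are relative to the trimmed mean signal to which the deposited arrays had been scaled. The 21 control probe sets for E. coli transcripts were brighter on both later days than on day -17. Scaling to them (E. coli scaling) lowers every difference by 0.43 for day 1 against day -17, 0.87 for day 17 against day 1 and 1.30 for day 17 against day -17, and moves the median of all genes to -0.43, -0.91 and -1.34. It leaves the order of the genes within a comparison unchanged. In biopsies of mixed tissue, fewer cells of a type and less RNA per cell cannot be told apart.

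Most of the family kept within a narrow range while a few members moved far. On day 1 against day -17, 8 of the 40 genes were higher and 2 lower (25.7% of all 5670 genes were called, 15.3% higher and 10.4% lower), with a median of 0.22 beside -0.00082 for all genes. For day 17 against day 1, 0 were higher and 5 lower (8.02% and 8.57% of all genes), with a median of -0.17 beside -0.035. For day 17 against day -17, 5 were higher and 9 lower (23.8% and 23.8% of all genes), with a median of -0.0088 beside -0.032. The share called on day 17 against day -17 was below the background of 47.6%, and in the F test over the 3 days 18 of 40 passed, near the background of 47.8%. Differences under 0.5 in size were found for 33, 34 and 32 of the 40 genes in these comparisons, against 63.4%, 68.3% and 48.1% of all genes. All 3 later pools lay above all 3 earlier ones for 14 genes, 2 genes and 12 genes in these comparisons (22.8%, 18.2% and 30.2% of all genes), and below them for 5, 12 and 12 (18.5%, 19.4% and 30.6%).

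The counts depended on single pools, on scaling and on the treatment of pool numbers: with the pool number as a random block, 10 genes were called for day 17 against day 1, all lower, in place of 5. The 10 calls for day 1 against day -17 became 3 without day 1 pool 3, 4 without day -17 pool 2 or without pool 3, and 5 without day -17 pool 1 or day 1 pool 2, but 17 without day 1 pool 1. The 5 calls for day 17 against day 1 became 3 without day 17 pool 2, 2 without day 17 pool 3 and 8 without day 1 pool 1. Median centring gave 14 genes higher and 2 lower for day 1 against day -17, and 5 and 6 for day 17 against day -17, whereas E. coli scaling gave 2 and 15, and 0 and 39, with 0 and 40 for day 17 against day 1. Of the 8 rises on day 1 against day -17, those of PSMD12 and PSME3 passed with E. coli scaling too. Day 1 pool 3 was the brightest of the 9 arrays for 15 of the 40 genes (14.9% of all genes), and 21 of the 40 had their highest mean on day 1 (24.2% of all genes).

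**Figure D1:**
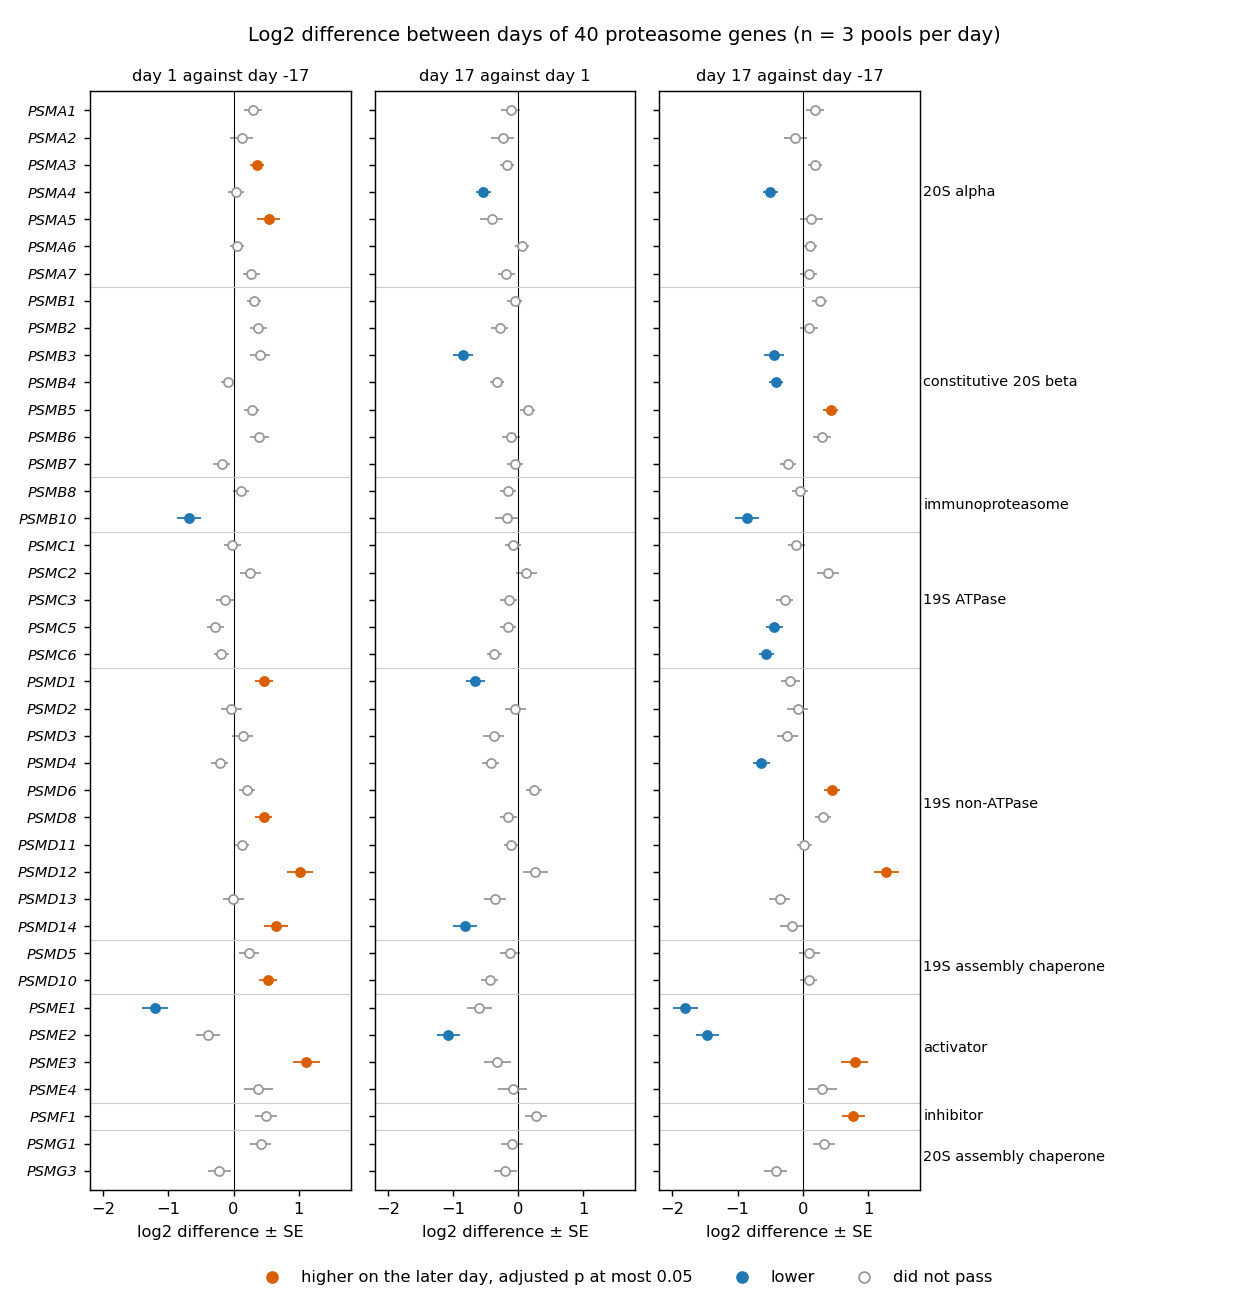
Log2 difference ± standard error of each of the 40 proteasome genes in the 3 comparisons of days, grouped by class, with n = 3 pools per day. Filled points passed an adjusted p of 0.05 and open points did not. PSME1 and PSME2 lie farthest left on day 17 against day -17 (-1.80 and -1.46), and PSMD12 farthest right (1.28, or -0.020 with E. coli scaling).

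Of the 7 measured genes of the alpha ring, 2 were higher and 0 lower on day 1 than on day -17 (15.3% and 10.4% of all genes). The median of the 7 was 0.27, and all 7 differences were above 0. PSMA5 gave 1357, 1538 and 1541 on day -17, 1938, 2114 and 2405 on day 1 and 2149, 1389 and 1424 on day 17. The day 1 pools lay above those of day -17, and day 17 overlapped with both. PSMA3 rose by 0.36 ± 0.11 and PSMA5 by 0.54 ± 0.18. Both calls were close to the threshold (adjusted p = 0.041 and 0.0497 in limma), and with E. coli scaling PSMA3 turned to -0.069. The call of PSMA3 ended without day -17 pools 1, 2 and 3, day 1 pools 2 and 3 or day 17 pools 1, 2 and 3 (adjusted p from 0.0562 to 0.132, each left out alone), and that of PSMA5 without day -17 pools 1, 2 and 3, day 1 pools 2 and 3 or day 17 pools 2 and 3 (adjusted p from 0.055 to 0.156, each left out alone). Quantile normalization reduced PSMA3 to 0.14 and ended its call. The adjusted p-values under the settings that ended the call were, for PSMA3, quantile normalization (0.256), no filter (0.0714), no intensity trend (0.092) and the 6 arrays alone (0.0947), and, for PSMA5, quantile normalization (0.0507), no filter (0.0634), no intensity trend (0.0791) and the pool number as a block (0.0557). The alpha gene that fell was PSMA4, with signals of 3354, 3567 and 3391 on day -17, 3070.1, 3812 and 3732 on day 1 and 2435, 2553 and 2319 on day 17. Its 3 pools of day 17 lay below all 6 others. It fell by 0.53 on day 17 against day 1 (-0.53 ± 0.12) and by 0.50 on day 17 against day -17 (-0.50 ± 0.12). The call for day 17 against day 1 ended without day 1 pools 2 and 3 or day 17 pools 1 and 3 (adjusted p from 0.0507 to 0.0631, each left out alone). PSMA1, PSMA2, PSMA6 and PSMA7 did not pass in any comparison, with differences between -0.24 and 0.30.

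In the constitutive beta ring, 0 of 7 genes passed on day 1 against day -17 (median 0.31). At an unadjusted p of 0.05 in limma, 5 of them did. PSMB5, the chymotrypsin-like cutting subunit, gave 3503, 3607 and 3461 on day -17, 3717, 4479 and 4720.1 on day 1 and 4994, 4625 and 4642 on day 17. All 3 pools of both later days lay above those of day -17. PSMB5 was higher by 0.43 ± 0.12 on day 17 than on day -17 (adjusted p = 0.0121), and lower with E. coli scaling (-0.87). The caspase-like subunit PSMB6 gave 2629, 2607 and 2707 on day -17, 3196, 3077 and 4307 on day 1 and 3271, 2994 and 3468 on day 17. Its pools of both later days also lay above day -17, but it did not pass (0.40 ± 0.14 on day 1 and 0.29 ± 0.14 on day 17, each against day -17), although with the pool number as a block the day 1 difference did (adjusted p = 0.0386). The trypsin-like subunit PSMB7 gave 3260.4, 3744 and 3934 on day -17, 2855, 3175 and 3629.7 on day 1 and 3093, 2985 and 3222 on day 17. It did not pass either (-0.23 ± 0.13 on day 17 against day -17, 95% interval -0.51 to 0.049), except after quantile normalization (-0.35, adjusted p = 0.0379).

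Among the structural beta genes, PSMB3 had the largest fall of the core. Its signals were 821, 886 and 867 on day -17, 1083, 1089.8 and 1248 on day 1 and 763, 594 and 557 on day 17. Day 1 lay above and day 17 below the pools of day -17. PSMB3 fell by 0.85 on day 17 against day 1 (-0.85 ± 0.15, adjusted p = 0.00727) and by 0.44 on day 17 against day -17 (-0.44 ± 0.15), a call that ended after quantile normalization (adjusted p = 0.108), after median centring (adjusted p = 0.0936) and without day -17 pools 1, 2 and 3 or day 17 pools 2 and 3 (adjusted p from 0.0529 to 0.116, each left out alone). PSMB4 fell on day 17 against day -17 (-0.41 ± 0.11), lost after median centring (adjusted p = 0.0583). PSMB1 and PSMB2 did not pass, at 0.31 ± 0.11 and 0.38 ± 0.13 on day 1 against day -17. For the 14 core genes together, 1 was higher and 3 lower on day 17 than on day -17 (23.8% and 23.8% of all genes). Their median of 0.10 turned to -0.049 after quantile normalization.

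**Figure D2:**
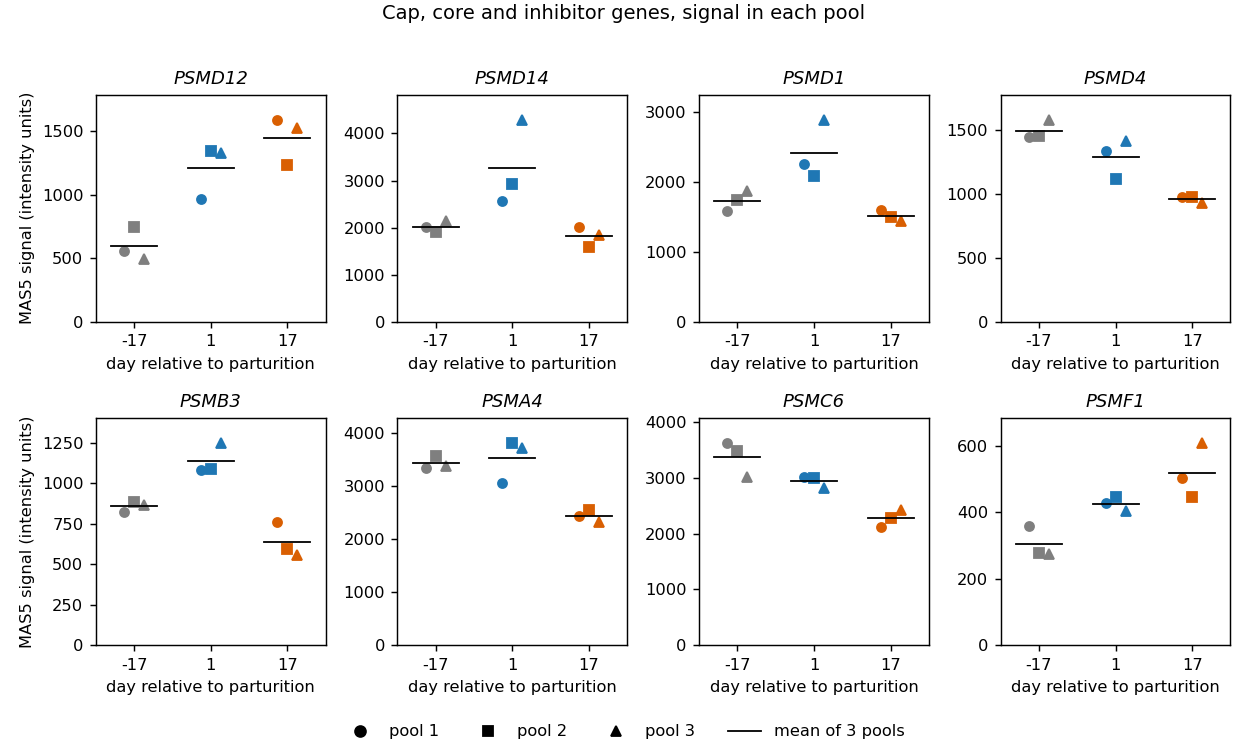
MAS5 signal of 8 proteasome genes in each of the 9 pools on a linear axis from 0, by day relative to parturition; the line is the mean of 3 pools. PSMD12 and PSMF1 are higher on day 17 than on day -17 (log2 differences of -0.020, not past the test, and -0.53 with E. coli scaling), PSMD4, PSMA4, PSMC6 and PSMB3 are lower, and PSMD14 and PSMD1 are highest on day 1.

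On day 17 against day -17, 2 of the 5 measured ATPase genes of the 19S cap were lower and 0 higher (23.8% and 23.8% of all genes). Their median was -0.28. PSMC6 gave 3618, 3481 and 3007 on day -17, 3007, 2994 and 2823 on day 1 and 2124, 2287 and 2426 on day 17. The pools of each later day lay below those of the day before it, though day 1 pool 1 was almost level with day -17 pool 3. It fell by 0.56 on day 17 against day -17 (-0.56 ± 0.12, adjusted p = 0.00319). PSMC5 fell by 0.43 (-0.43 ± 0.13), a call lost after median centring (adjusted p = 0.0684) and without day -17 pool 3 or day 17 pool 3 (adjusted p from 0.0602 to 0.0738, each left out alone). PSMC1, PSMC3 and the brightest probe set of PSMC2 did not pass in any comparison, whereas another probe set of PSMC2 was called lower on day 17 than on day -17. On day 1 against day -17, and on day 17 against day 1, 0 of the 5 passed by limma (0 and 1 at an unadjusted p of 0.05).

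Of the 10 measured non-ATPase genes of the cap, 4 were higher and 0 lower on day 1 than on day -17 (15.3% and 10.4% of all genes), with a median of 0.17. By day 17, 2 were higher and 1 lower than on day -17 (23.8% and 23.8% of all genes), with a median of -0.12. PSMD12, a scaffold subunit of the lid, had the largest rise of the family on day 17: its signals were 558, 747 and 498 on day -17, 968, 1346 and 1327 on day 1 and 1589, 1233 and 1527 on day 17. The pools of both later days lay above all 3 of day -17. PSMD12 was 2.03-fold higher on day 1 (1.02 ± 0.20, adjusted p = 0.00525) and 2.43-fold higher on day 17 (1.28 ± 0.20, adjusted p = 0.000598), each against day -17. With E. coli scaling the day 1 difference was 0.59 and that of day 17 was -0.020. PSMD6, another lid subunit, gave 2380.3, 2408 and 2515 on day -17, 2443, 2918 and 3116 on day 1 and 3504, 3275 and 3197 on day 17. It was higher on day 17 than on day -17 (0.45 ± 0.12; -0.85 with E. coli scaling), and its 3 pools of day 17 lay above all others.

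PSMD14, the lid's deubiquitinating enzyme, peaked on day 1, with signals of 2012, 1907 and 2131 on day -17, 2559.6, 2927 and 4286 on day 1 and 2009, 1589.7 and 1843 on day 17. Its day 1 pools lay above all 6 others, and day 1 pool 3 stood apart at the top. PSMD14 was higher on day 1 than on day -17 (0.66 ± 0.18) and lower on day 17 than on day 1 (-0.82 ± 0.18). The rise ended with the 6 arrays alone (adjusted p = 0.0574) and without day -17 pools 1, 2 and 3 or day 1 pool 3 (adjusted p from 0.0589 to 0.0775, each left out alone), and the fall without day 17 pools 2 and 3 (adjusted p from 0.0553 to 0.0692, each left out alone). PSMD1, the large scaffold of the cap's base, was also brightest on day 1, with 1579, 1736 and 1874 on day -17, 2257, 2084 and 2881 on day 1 and 1600.4, 1494 and 1441 on day 17. It was higher on day 1 than on day -17 (0.47 ± 0.14) and lower on day 17 than on day 1 (-0.66 ± 0.14). Its rise ended with no filter (0.0513), no intensity trend (0.0668), a mean over probe sets (0.0886) and the 6 arrays alone (0.0821), in adjusted p, and without day -17 pools 1, 2 and 3, day 1 pool 3 or day 17 pools 1, 2 and 3 (adjusted p from 0.0534 to 0.128, each left out alone), and its fall without day 17 pools 2 and 3 (adjusted p from 0.0536 to 0.0594, each left out alone). The rise of PSMD8, a lid subunit (0.46 ± 0.13 on day 1 against day -17), ended with no intensity trend (0.0533) and the 6 arrays alone (0.0622), in adjusted p, and without day -17 pools 1, 2 and 3 or day 1 pools 2 and 3 (adjusted p from 0.0605 to 0.0924, each left out alone).

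PSMD4, a ubiquitin receptor of the cap, gave 1444, 1455 and 1579 on day -17, 1340.4, 1116 and 1419 on day 1 and 975, 978 and 928 on day 17. Its day 17 pools lay below all others, and it fell by 0.64 against day -17 (-0.64 ± 0.13, adjusted p = 0.00292). PSMD2, PSMD3, PSMD13 and the brightest probe set of PSMD11 did not pass in any comparison, with differences between -0.38 and 0.14, whereas a dim probe set of PSMD11 was called higher on both later days than on day -17. Over the 15 cap genes, 2 were higher and 3 lower on day 17 than on day -17 (23.8% and 23.8% of all genes). Their median was -0.16 beside 0.10 for the core. The medians of core and cap on day 1 against day -17 were 0.29 and 0.13, and on day 17 against day 1 -0.18 and -0.15.

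**Figure D3:**
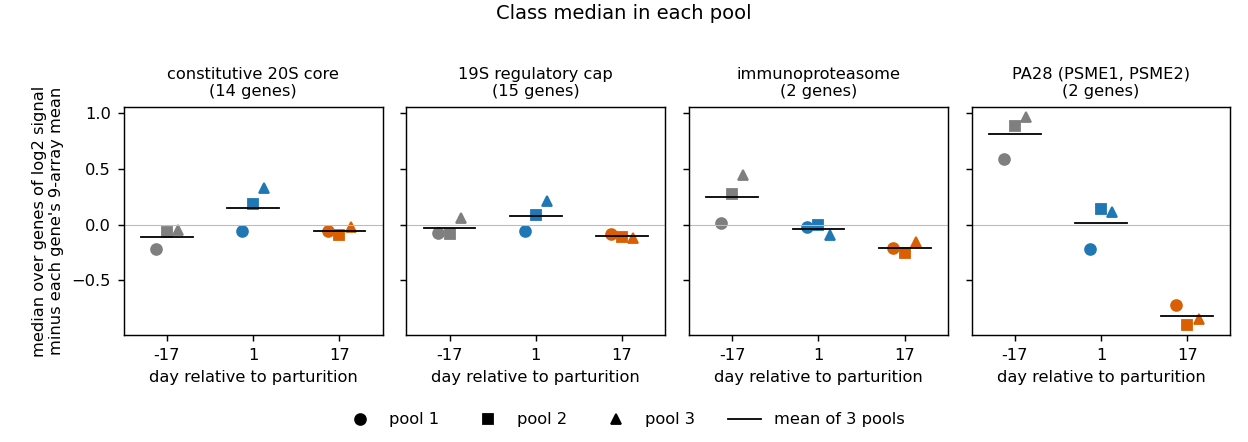
Class median in each pool: for each gene the log2 signal minus its mean over the 9 arrays, and then the median over the class's genes; the line is the mean of 3 pools. The 14 core and 15 cap genes stay between -0.22 and 0.33 in every pool, while PSME1 and PSME2 run between 0.96 on day -17 and -0.90 on day 17.

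Of the immunoproteasome's replacement subunits, PSMB8 and PSMB10 were measured and PSMB9 was not analysed here. The falls of PSMB10 passed the test, and no difference of PSMB8 did. PSMB8, which takes the place of PSMB5, gave 961, 1069 and 1132 on day -17, 1041, 1182 and 1206 on day 1 and 1035, 1008 and 1019 on day 17. All 9 pools lay between 961 and 1206. The day 17 pools lay below those of day 1, and day -17 overlapped with both. It did not pass: the difference was -0.043 ± 0.12 on day 17 against day -17, with a 95% interval of -0.32 to 0.23. PSMB10, which takes the place of PSMB7, gave 633, 816 and 970.4 on day -17, 556, 501 and 436 on day 1 and 431, 415 and 473 on day 17. Its pools of both later days lay below all 3 of day -17. PSMB10 was 1.60-fold lower on day 1 (-0.68 ± 0.18, adjusted p = 0.022) and 1.81-fold lower on day 17 (-0.86 ± 0.18, adjusted p = 0.00351), each against day -17. The day 1 call ended with the 6 arrays of these days alone and without day -17 pools 2 and 3 or day 1 pools 2 and 3 (adjusted p from 0.0519 to 0.0832, each left out alone), while the day 17 call held without any 1 pool.

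Each replacement subunit was set against its constitutive counterpart within the array, which a scaling factor common to the array cannot move. The log2 ratio of PSMB8 to PSMB5 changed over the 3 days (exact permutation test of the F statistic over all arrangements of the arrays, p = 0.00714, adjusted p = 0.0143 over 2 pairs, where the smallest possible p is 0.00357). It was lower by 0.47 on day 17 than on day -17 (mean change -0.47), with all 3 pools of day 17 below the 6 others. With the deposited scaling, most of this lay in the constitutive subunit. PSMB5 rose by 0.43 ± 0.12 between these days, and PSMB8 differed by -0.043 ± 0.12 and did not pass. With E. coli scaling the differences were -0.87 for PSMB5 and -1.35 for PSMB8, so the division between the 2 genes depends on the scaling. After quantile normalization the change of the ratio was -0.26 and did not pass (exact permutation, adjusted p = 0.0714). It did not pass with pools permuted within their number either (exact permutation, adjusted p = 0.111). That restricted test has far fewer arrangements and a larger smallest possible p, so no conclusion is drawn from it. The ratio of PSMB10 to PSMB7 was lower by 0.63 on day 17 than on day -17 (mean change -0.63) and did not pass over the 3 days (exact permutation, p = 0.0536, adjusted p = 0.0536). Without day 1 pool 1 or day 1 pool 3 it did (exact permutation, adjusted p = 0.0357 and 0.0107). The pools of day 17 lay below those of day -17 in both ratios.

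**Figure D4:**
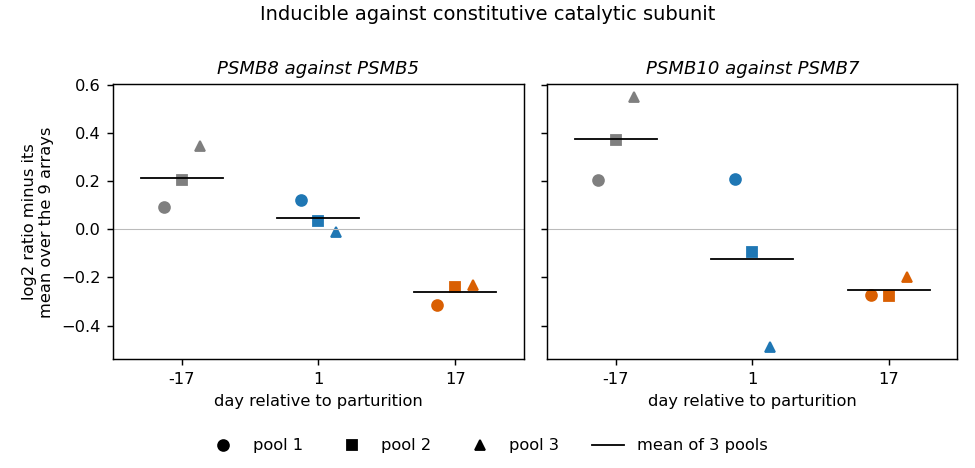
Log2 ratio of PSMB8 to PSMB5 and of PSMB10 to PSMB7 in each of the 9 pools, each minus its mean over the 9 arrays, by day relative to parturition; the line is the mean of 3 pools. For PSMB8 against PSMB5 the day 17 pools lie between -0.31 and -0.23 and those of day -17 between 0.092 and 0.34.

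The interferon-inducible PA28 cap had the largest falls of the family. PSME1 gave 6760.1, 8301 and 9043 on day -17, 2692, 4515 and 3385 on day 1 and 2387, 2581 and 1945 on day 17. All 6 pools of the later days lay below day -17. The means were 2304 ± 326 on day 17 and 8035 ± 1164 on day -17 (SD, n = 3). PSME1 was 2.31-fold lower on day 1 (-1.21 ± 0.20, adjusted p = 0.00235) and 3.49-fold lower on day 17 (-1.80 ± 0.20, adjusted p = 8.53e-05), each against day -17. Its partner PSME2 gave 1583, 1956 and 1994 on day -17, 1311, 1271 and 1644 on day 1 and 731, 530.2 and 758 on day 17. Day 1 overlapped with day -17, and the day 17 pools lay below all others. PSME2 was 2.10-fold lower on day 17 than on day 1 (-1.07 ± 0.18, adjusted p = 0.00564) and 2.76-fold lower than on day -17 (-1.46 ± 0.18, adjusted p = 0.000163).

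PSME1 did not pass on day 17 against day 1 (-0.59 ± 0.20), except with the pool number as a block (adjusted p = 0.0383), with E. coli scaling or without day 1 pool 1 (adjusted p = 0.0224), and PSME2 did not pass on day 1 against day -17 (-0.39 ± 0.18). Whether the 2 genes differed in timing was not tested. For day 17 against day -17, PSME1 stood at rank 244 and PSME2 at rank 386 from the lowest of 5670 genes. The calls named above for PSME1 and PSME2 held under every other scaling, filter and block tried and without any 1 pool, E. coli scaling included. In the RefSeq gene table of the Sscrofa11.1 assembly, PSME1 and PSME2 are neighbours with only EMC9 between them. PSMB8 lies next to TAP1 there, with PSMB9 on the other side of TAP1.

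**Figure D5:**
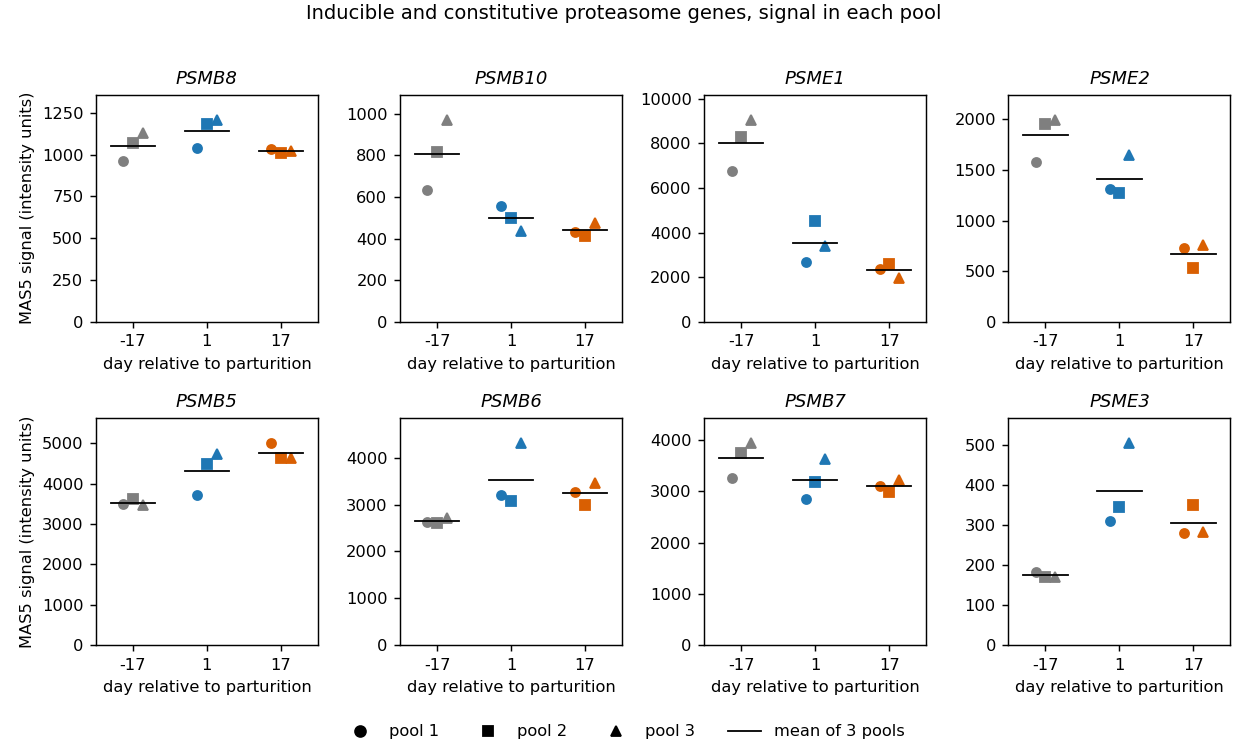
MAS5 signal of the inducible genes PSMB8, PSMB10, PSME1 and PSME2, the constitutive PSMB5, PSMB6 and PSMB7, and PSME3, in each of the 9 pools on a linear axis from 0; the line is the mean of 3 pools. PSME1, PSME2 and PSMB10 are lower on day 17 than on day -17 in every pool, PSMB8 lies between 961 and 1206 throughout, and PSMB5 and PSME3 are higher (lower with E. coli scaling).

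The other activators moved in the opposite direction or not past the test. PSME3, a nuclear cap related to PA28 that interferon does not induce, gave 182, 169.7 and 169.9 on day -17, 309, 344 and 503 on day 1 and 279, 349 and 283 on day 17. All 6 later pools lay above day -17. PSME3 was 2.17-fold higher on day 1 (1.12 ± 0.21, adjusted p = 0.0045) and 1.74-fold higher on day 17 (0.80 ± 0.21, adjusted p = 0.0105), each against day -17. With E. coli scaling these differences were 0.69 and -0.51. PSME4, a large nuclear activator, did not pass in any comparison (0.38 ± 0.23 on day 1 and 0.30 ± 0.23 on day 17, each against day -17). PSMF1, an inhibitor of the core in the test tube, gave 359, 278 and 273 on day -17, 428, 446 and 403 on day 1 and 502, 446 and 607 on day 17. Its pools of both later days lay above day -17. It was higher on day 17 than on day -17 (0.77 ± 0.17, adjusted p = 0.00504; -0.53 with E. coli scaling).

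Of 4 measured chaperones that assemble the proteasome, 1 passed. PSMD10, gankyrin, an assembly chaperone of the cap's ATPases, gave 816, 908 and 922 on day -17, 1161, 1347 and 1315 on day 1 and 997, 999.7 and 827 on day 17. Day 1 lay above all other pools. It was higher on day 1 than on day -17 (0.53 ± 0.13, adjusted p = 0.0191), a call that ended without day -17 pool 1 or day 1 pools 2 and 3 (adjusted p from 0.0572 to 0.0605, each left out alone). PSMD5, of the same step, and PSMG1 and PSMG3, which pair up the alpha ring, did not pass in any comparison, with differences between -0.41 and 0.41.

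Probe sets of 1 gene did not always go the same way, and 4 genes had several. On day 17 against day -17, the 3 probe sets of PSMC2 differed by 0.39 ± 0.17, -0.39 ± 0.13 and -0.095 ± 0.13, the brightest first. Of these the second passed, as lower (adjusted p = 0.0354). For PSMD11 they differed by 0.026 ± 0.11, 0.32 ± 0.16 and 1.37 ± 0.28, and the last of these passed (adjusted p = 0.00335), with signals of only 52.2 to 177. It was also called higher on day 1 than on day -17 (0.87 ± 0.28, adjusted p = 0.0483). Both probe sets of PSMF1 passed on day 17 against day -17 (0.77 ± 0.17 and 0.55 ± 0.20), but they had opposite signs on day 1 against day -17 (0.50 ± 0.17 and -0.15 ± 0.20), where neither passed. On day 17 against day 1 the dimmer one was called higher (0.70 ± 0.20, adjusted p = 0.0449) and the brighter one was not (0.27 ± 0.17), so the count of 0 family genes higher there rests on the brightest probe sets. Both probe sets of PSMD1 were called lower on day 17 than on day 1 (-0.66 ± 0.14 and -0.55 ± 0.16), and on day 1 against day -17 the dimmer one did not pass (0.27 ± 0.16).

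Genes that work beside the proteasome were described as 5 lists. Their counts stand beside these shares of all genes: 15.3% higher and 10.4% lower on day 1 against day -17, 8.02% and 8.57% on day 17 against day 1, and 23.8% and 23.8% on day 17 against day -17. Of 24 partners and regulators outside the family, 8 were measured, and on day 17 against day -17 0 were higher and 3 lower (median -0.21). The largest falls were PAAF1, a chaperone of the cap (-0.61 ± 0.19), and UBE3A, a ubiquitin ligase that binds the proteasome (-0.43 ± 0.13). VCP, the segregase that pulls proteins out of membranes and complexes, was lower on day 17 than on day 1 (-0.57 ± 0.17), the 1 of 8 that passed in that comparison, and 0 of 8 passed on day 1 against day -17 (3 at an unadjusted p of 0.05 in limma). PAAF1 was lost with quantile normalization (0.0694) and a mean over probe sets (0.141), in adjusted p, and without day -17 pools 2 and 3 or day 17 pools 1, 2 and 3 (adjusted p from 0.0506 to 0.0949, each left out alone). UBE3A was lost with median centring (adjusted p = 0.0633) and without day -17 pools 2 and 3 or day 17 pool 2 (adjusted p from 0.0564 to 0.0735, each left out alone). A mean over probe sets reduced VCP to -0.33. Its call was lost with median centring (0.0601), no filter (0.0585), no intensity trend (0.0781), a mean over probe sets (0.144) and the 6 arrays alone (0.0769), in adjusted p, and without day -17 pools 1, 2 and 3, day 1 pools 2 and 3 or day 17 pools 1, 2 and 3 (adjusted p from 0.0552 to 0.143, each left out alone).

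Of 27 genes for ubiquitin and its conjugation, 18 were measured. On day 1 against day -17, 3 were higher and 0 lower, led by UBE2K (0.82 ± 0.16) and CDC34 (0.76 ± 0.15), both ubiquitin-conjugating enzymes. With E. coli scaling this rise of CDC34 was 0.33 and did not pass. The counts were 3 higher and 2 lower for day 17 against day 1. Against day -17, on day 17, 6 were higher and 5 lower (23.8% and 23.8% of all genes), with a median of 0.18. CDC34 gave 728, 892 and 916 on day -17, 1344, 1295 and 1656 on day 1 and 2605, 2694 and 3024 on day 17. The days did not overlap, and it was 3.29-fold higher on day 17 than on day -17 (1.72 ± 0.15) and 1.95-fold higher than on day 1 (0.96 ± 0.15), a call lost with E. coli scaling (0.086). UBB, a polyubiquitin gene, was also higher on day 17 than on day -17 (0.99 ± 0.12) and than on day 1 (0.59 ± 0.12), but lower with E. coli scaling (-0.31 and -0.28) and not past the test after quantile normalization (adjusted p = 0.208 and 0.971). UBE2C, the mitotic conjugating enzyme, was lower on day 17 than on day -17 (-1.81 ± 0.40) and than on day 1 (-1.99 ± 0.40). UBE2E2 was lower on day 17 than on day -17 (-0.94 ± 0.20), and UBE2N, which builds chains that signal rather than degrade, lower on day 17 than on day 1 (-0.996 ± 0.14).

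Of 23 genes that hand rejected proteins of the endoplasmic reticulum to the proteasome, 11 were measured, and 6 were higher and 0 lower on day 1, and 7 higher and 0 lower on day 17, each against day -17 (medians 0.56 and 0.63). Of all genes, 15.3% were higher on day 1 and 23.8% on day 17, each against day -17. Between day 17 and day 1, 0 of 11 passed (0 at an unadjusted p of 0.05 in limma). DERL1, a channel for their export, gave 1454, 1201 and 1396 on day -17, 2467, 3317 and 3809 on day 1 and 3329, 3427 and 3870.0 on day 17. EDEM2, which trims their sugar chains, gave 1147, 854 and 1017 on day -17, 1814, 2102 and 2475 on day 1 and 2655, 2254 and 2612 on day 17. Both had all later pools above day -17. DERL1 differed by 1.23 ± 0.17 on day 1 and 1.39 ± 0.17 on day 17, and EDEM2 by 1.08 ± 0.16 and 1.32 ± 0.16, each against day -17. With E. coli scaling the day 17 differences were 0.089 and 0.020 and did not pass.

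MHC class I genes, which show the peptides that the immunoproteasome and PA28 help to make, went both ways. Of 17 listed, 11 were measured, and 3 were higher and 2 lower on day 17 than on day -17 (23.8% and 23.8% of all genes). Their median was 0.16. B2M, the invariant light chain, gave 19659.6, 17479 and 21602 on day -17, 24041, 19222 and 21706 on day 1 and 44309.5, 41959 and 39439.6 on day 17. SLA-3, a class I heavy chain, gave 3304, 3486 and 3872 on day -17, 4499, 4136 and 3118 on day 1 and 7553, 7360.2 and 6605 on day 17. Both had their 3 pools of day 17 above all others. B2M differed by 1.10 ± 0.12 and SLA-3 by 1.01 ± 0.15 on day 17 against day -17, and by 0.96 ± 0.12 and 0.89 ± 0.15 on day 17 against day 1. E. coli scaling turned the differences from day -17 to -0.20 and -0.29 and ended both calls against day 1. With a mean over its probe sets B2M did not pass (adjusted p = 0.606 on day 17 against day -17 and 0.957 on day 17 against day 1). Its call on day 17 against day 1 also ended after quantile normalization (adjusted p = 0.0637). SLA-6 and SLA-8 were lower on day 17 than on day -17 (-0.78 ± 0.29 and -0.44 ± 0.12), and the call of SLA-6 was lost with quantile normalization (0.0931), median centring (0.062), no filter (0.0604) and no intensity trend (0.0684), in adjusted p, and without day -17 pools 1, 2 and 3, day 1 pool 2 or day 17 pools 1 and 3 (adjusted p from 0.0562 to 0.177, each left out alone). Heavy chain genes are near copies, so their probe sets may share transcripts. TAP1, the peptide transporter gene beside PSMB8, did not pass (-0.75 ± 0.33 on day 1 and -0.31 ± 0.33 on day 17, each against day -17). CALR and PDIA3, chaperones of class I loading and of the endoplasmic reticulum at large, were higher on day 1 than on day -17 (1.26 ± 0.37 and 0.90 ± 0.18). CALR was lost with no intensity trend (adjusted p = 0.0541) and without day -17 pools 1, 2 and 3 or day 1 pools 2 and 3 (adjusted p from 0.0677 to 0.112, each left out alone). With E. coli scaling CALR was 0.83 and did not pass. PDIA3 was lower on day 17 than on day 1 (-0.84 ± 0.18), lost without day 17 pool 3 (adjusted p = 0.0605).

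Of 28 interferon response genes, 22 were measured, and 3 were higher and 0 lower on day 17 than on day -17 (median 0.11). Of all genes, 23.8% were higher and 23.8% lower there. IRF1, a transcription factor known to drive the inducible proteasome genes, did not pass (-0.17 ± 0.21 on day 1 and 0.036 ± 0.21 on day 17, each against day -17). On day 1 against day -17, 1 was higher and 2 lower: the receptor chain IFNAR2 (0.63 ± 0.14), the chemokine CXCL9 (-1.42 ± 0.45) and the guanylate-binding protein GBP2 (-1.22 ± 0.31). With E. coli scaling IFNAR2 was 0.20 and did not pass. CXCL9 was lost with quantile normalization (0.059), median centring (0.0544), no filter (0.0595), no intensity trend (0.0576), the pool number as a block (0.053) and the 6 arrays alone (0.0737), in adjusted p, and without day -17 pools 2 and 3, day 1 pools 2 and 3 or day 17 pools 1 and 3 (adjusted p from 0.0548 to 0.152, each left out alone), and GBP2 without day -17 pools 1 and 3 or day 1 pool 3 (adjusted p from 0.0536 to 0.0693, each left out alone). On day 17 against day -17, IRF8 (0.69 ± 0.22) and IFNAR2 (0.42 ± 0.14) were higher, both lower with E. coli scaling (-0.62 and -0.88). IRF8 was lost without day -17 pools 1 and 3 or day 17 pools 1 and 3 (adjusted p from 0.0614 to 0.0941, each left out alone), and IFNAR2 with a mean over probe sets, which reduced it to 0.22 (adjusted p = 0.344), and without day -17 pools 1, 2 and 3 or day 17 pools 1, 2 and 3 (adjusted p from 0.0511 to 0.0904, each left out alone). JAK1, the kinase of the receptors, was higher on day 17 than on day 1 (0.40 ± 0.10; -0.48 with E. coli scaling), lost with median centring (0.0612), no intensity trend (0.0723) and the 6 arrays alone (0.0601), in adjusted p, and without day 1 pools 2 and 3 or day 17 pools 1, 2 and 3 (adjusted p from 0.0542 to 0.0902, each left out alone).

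Leukocytes carry immunoproteasome and PA28, and several of their markers differed between the days. Of all genes, 23.8% were higher and 23.8% lower on day 17 than on day -17, and 10.4% were lower on day 1 than on day -17. Of 15 myeloid markers 8 were measured, and 1 was higher and 4 lower on day 17 than on day -17, with summed signals of 12923 to 14726 on day -17, 7338 to 19816 on day 1 and 6221 to 8183 on day 17. Of 8 markers shared by all leukocytes 6 were measured, and 0 were higher and 4 lower, with sums of 6282 to 7109 on day -17, 4406 to 7263 on day 1 and 4185 to 4302 on day 17. Of 15 T and NK cell markers 5 were measured, 2 were lower on day 1 than on day -17, 0 passed on day 17 against day -17 (0 at an unadjusted p of 0.05 in limma), and the sums were 572 to 818 on day -17, 274 to 532 on day 1 and 486 to 567 on day 17. The 2 lower on day 1, KLRK1 and CD8A, lost their calls when certain single pools were left out (limma, adjusted p up to 0.102 and 0.0563). Leaving out single pools also ended the falls of C1QC, ITGB2 and LAPTM5 on day 17 against day -17 (limma, adjusted p up to 0.0562, 0.120 and 0.0675), but not that of FCER1G. Of 10 B and plasma cell markers 2 were measured, both higher on day 17 than on day -17, with sums of 6134 to 9334 on day -17, 5729.7 to 10538 on day 1 and 27832 to 28308 on day 17 that were mostly JCHAIN. PTPRC, CD3D, CD3G, CD4, CD8B, LCK, PRF1, CD38, ITGAM and the interferon gene IFNG were on the array but too dim to be tested, and the other listed markers were not analysed here. Adipocyte markers had 1 higher and 4 lower of 7, with sums of 7510.4 to 19145 on day -17, 14392 to 19773 on day 1 and 15252 to 17101 on day 17, mostly FABP4, and 7 epithelial markers had 3 higher and 2 lower, with sums of 16219 to 34052 on day -17, 25478 to 41213 on day 1 and 42140.0 to 46198 on day 17, both on day 17 against day -17. The part of these cell types in the falls of PSME1, PSME2 and PSMB10 was not tested.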

How the data were processed

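Affymetrix porcine GeneChips had measured total RNA of 9 pools, 3 per day. The deposited values are linear MAS5 signal intensities, per the submitters' processing notes, whose version is not given in the sources used here; from the values, the authors had scaled each array to a trimmed mean of 500.088 to 500.112. The analysis used log2 signals without a pseudocount. Probe sets reaching the 40th percentile of an array in at least 3 of 9 arrays were kept, 15519 of 24123, and fitted by day with limma 3.58.1 in R 4.3.3 (lmFit, eBayes with an intensity trend), with Benjamini-Hochberg adjustment over all of them and a threshold of 0.05. Of all probe sets, 10099 had 1 gene symbol in the platform annotation, 198 several and 13826 none; a gene stands for its tested probe set of highest mean, 5670 genes in all. Of 48 family symbols in the RefSeq table of Sscrofa11.1, 8 had no probe set named here (PSMA8, PSMB9, PSMB11, PSMC4, PSMD7, PSMD9, PSMG2 and PSMG4) and were not analysed here.

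Paired subunits were compared by an exact permutation test of the F statistic. The named genes were all family members and, for lists of genes beside the proteasome, the 2 largest called rises and falls of each comparison. Cell type markers were given as counts and sums, with only some genes named. TAP1 and IRF1 were chosen after their values were seen. ADIPOQ, in the check of the tissue, was named outside this rule. The fit was tested on simulated data. The members and lists were chosen with earlier results of these data known. P-values measure the spread between pools. The main fit took the 9 arrays as independent, although the pools of the 3 days were drawn from the same 6 sows. Deviations from the day's mean were correlated between pools. Same-numbered pools gave 0.235 to 0.506 for days 1 and -17, 0.105 to 0.130 for days 17 and -17, and 0.0960 to 0.107 for days 17 and 1. In that order, pools of different number gave -0.387 to 0.113, -0.0739 to -0.0421 and -0.0768 to -0.0268. For each pair of days, every same-numbered value lay above all values of differently numbered pools. Alternatives were other scalings (quantile, median centring, E. coli controls), pseudocount 16, other filters, no trend, 6 samples alone, the pool number as a block, a mean over probe sets, and leaving out each pool, with each gene's probe set kept except in that mean. The number of arrays limits the precision.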

Additional observations from a re-analysis of the deposited data

How the results depend on the processing

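The 43 values of single proteasome genes re-run were the calls of the main fit and, called or not, PSMB5, PSMB6, PSMB7, PSMB8, PSMB10, PSME1 and PSME2. Under 20 alternatives each, 746 of 860 comparisons kept their direction and side of the threshold. Of the 29 called values, 16 kept their call in every setting other than E. coli scaling, and 13 lost it in some. With E. coli scaling, 6 of the 29 changed sign. For other lists, re-run for the 2 largest called rises and falls per comparison, 1050 of 1233 comparisons kept both. With E. coli scaling the counts of proteasome genes called were 17 for day 1 against day -17, 40 for day 17 against day 1, 39 for day 17 against day -17 and 40 in the F test. In that order of comparisons, the medians became -0.14, -1.05 and -1.20 for the core, -0.30, -1.03 and -1.46 for the cap, and -0.71, -1.04 and -1.75 for the 2 immunoproteasome genes, PSMB8 and PSMB10. Among the single-gene results re-run under each setting, signs turned for PSMA3 (-0.069), PSMB5 (-0.15), PSMB6 (-0.032) and PSMB8 (-0.31) on day 1 against day -17. They turned for PSMB5 (-0.72), UBB (-0.28), JAK1 (-0.48), EPCAM (-0.22), CSN1S1 (-0.034) and WAP (-0.044) on day 17 against day 1. On day 17 against day -17 they turned for PSMB5 (-0.87), PSMD12 (-0.020), PSMD6 (-0.85), PSME3 (-0.51), PSMF1 (-0.53), PSMB6 (-1.01), UBB (-0.31), B2M (-0.20), SLA-3 (-0.29), IRF8 (-0.62), IFNAR2 (-0.88), CD14 (-0.11) and FABP4 (-0.64). The construction of that scaling, a common amount taken from every gene, gives these turns. Family genes that were not re-run turn too where their rise was smaller than that amount. Examples are PSMA1, PSMB1 and PSMB2 on day 1 against day -17. The cause of the controls' own difference was not tested.

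Other settings moved the count for day 1 against day -17 from 10 to 16 (median centring), 6 (no intensity trend) and 5 (6 samples alone), and that for day 17 against day 1 from 5 to 8 (stricter filter) and 10 (pool number as a random replicate block); the cause was not tested. Leaving out each pool gave 3 to 17, 2 to 8 and 13 to 15 calls in the 3 comparisons and 12 to 23 in the F test. It gave medians of 0.22 to 0.40, -0.28 to -0.090 and 0.051 to 0.16 for the core, 0.056 to 0.13, -0.24 to -0.10 and -0.23 to -0.066 for the cap, and -0.40 to -0.18, -0.19 to -0.14 and -0.56 to -0.35 for the immunoproteasome. This last median is that of only 2 genes, PSMB8 and PSMB10. With all pools, they differed by 0.12 and -0.68 on day 1 against day -17. The core median on day 17 against day -17 was -0.049 after quantile normalization, and the cap median -0.075 after median centring. PSMB8 on day 17 against day -17 was 0.040 after quantile normalization, 0.039 after median centring and 0.0096 without day -17 pool 3. Without single pools, PSMB6 on day 17 against day 1 ranged over -0.20 to 0.047, PSMB7 there over -0.13 to 0.042 and PSMB8 on day 17 against day -17 over -0.11 to 0.0096. Without day 1 pool 3, PSMB6 and PSMB7 were 0.047 and 0.042 on day 17 against day 1. The PSMB8 to PSMB5 ratio changed by -0.54 to -0.41 and that of PSMB10 to PSMB7 by -0.71 to -0.54 on day 17 against day -17 without single pools. The ratio of PSMB8 to PSMB5 was -0.26 after quantile normalization (exact permutation, adjusted p = 0.0714) and -0.47 with the fixed replicate block (exact permutation, adjusted p = 0.111). The test with the block has fewer arrangements and a larger smallest possible p. The ratio of PSMB9 to PSMB6 could not be computed. Among the single-gene results re-run under each setting, the block changed no call other than those of PSMA5, PSMB6, PSME1 and CXCL9 given above. The further family genes called with the random block on day 17 against day 1 were not looked at singly. Dim probe sets limit the leukocyte markers.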
